A study of Rattus norvegicus with 12 samples.

Results

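Solute carriers are membrane proteins that move amino acids, sugars, ions, metals, nucleotides and vitamins into cells or between a cell's compartments, and each numbered Slc family carries a related group of substrates. The members were the genes whose single symbol in the platform's gene table was Slc, a family number from 1 to 39, the letter a and a number, without the glucose transporters Slc2a1 and Slc2a3. Each gene was read from the probe set (the group of probes that reports 1 transcript) with the highest mean over all 12 arrays. A gene was kept where the mean of its 2 arrays was at least 7 log2 units in at least 1 of the 6 lines. Of 244 genes with such a name, 108 were kept, among 14218 genes with 1 symbol on the array, and 136 stayed under the level in every line. The members were thus chosen by their line means, which are given as a description.

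The arrays compared induced pluripotent stem (iPS) cells, embryonic stem (ES) cells and embryonic fibroblasts (EF) of the rat, with 2 lines of each and 2 arrays per line. The iPS lines A1 and A2 came from the FHH strain and grew in 2i medium. So did the ES lines DAC2 and DAC8, for which no strain is labelled. The growth protocol names knock-out serum medium with LIF for iPS lines as well. The fibroblast cultures REF1 and REF2 were made from e14.5 FHH embryos and grew in MEF medium. Cells were collected at day 5 of a passage for the stem cell lines and at day 6 for the fibroblasts. For the iPS and ES lines the labels report the pluripotency markers Oct4, Sox2 and Nanog as present, and they describe iPS culture on mitomycin-treated mouse fibroblasts. They do not say whether these feeder cells were removed, whether a line is 1 clone, or whether the arrays of a line are separate cultures. So a p-value that compares lines reflects the spread of arrays alone, and this may be technical.

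Carriers work in sets. Amino acid exchangers of the Slc7 family need the heavy chain Slc3a2 to reach the cell surface, and they trade amino acids that sodium-coupled carriers of the Slc1 and Slc38 families have concentrated in the cell. Slc39 proteins bring zinc into the cytosol and Slc30 proteins take it out, while Slc25 proteins cross the inner mitochondrial membrane. Dividing stem cells and neural cells are known for high amino acid demand, and glutamate and GABA carriers are known from nervous tissue.

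Markers went against the labels of DAC8 and REF2, and the iPS lines were low in naive pluripotency markers and high in neural ones. The median level of 10 fibroblast markers was 12.63 in the ES line DAC8 and 12.97 in the fibroblast culture REF1, against 4.61 to 4.82 in the other 4 lines. The median of the 7 measured naive pluripotency markers was 11.19 in DAC2 and 11.12 in the fibroblast culture REF2, against 4.26 to 4.56 elsewhere, the iPS lines included. The median of 10 neural markers was 10.69 in A1 and 10.65 in A2, against 4.64 to 5.70 elsewhere. Single markers departed from these medians. In DAC8 and REF1, 3 of the 7 naive markers were at 7 or more. These were Klf2 (10.36 and 9.81), Klf4 (8.72 and 7.65) and Klf5 (7.06 and 7.48). Fibroblast markers at that level were Pdgfra and Fn1 in A1 (9.50 and 8.83) and A2 (9.36 and 8.73). In DAC2 and REF2 only Fn1 was (12.20 and 12.22). Neural markers at that level numbered 1 in DAC2 and in REF2, 2 in DAC8 and 3 in REF1. Median levels of the astrocyte, endothelial and macrophage lists lay below 5 in all 6 lines, and those of the endoderm list lay at or below 5.05. The endothelial median rested on 3 measured genes. Of these, Tek was 9.06 in A1 and 8.89 in A2, and Pecam1 7.88 in DAC2 and 8.32 in REF2. Cd14 of the macrophage list was 7.05 in DAC8 and 7.46 in REF1. The median of the 4 trophoblast markers was 8.75 in DAC2 and 7.49 in REF2, and at or below 4.18 elsewhere. Cdx2 measured 9.83 and 8.17 in DAC2 and REF2, but Elf5 only 3.15 and 3.44, and Tfap2c was also high in A1 (8.89) and A2 (8.84). The part of these cell states in the results was not tested, and in bulk RNA fewer cells of a type cannot be told apart from less RNA per cell. No array was given another group, so lines were compared one by one, under their labels. Levels under 5 may be background, so where 1 line of a comparison is that low the true difference may be larger than printed.

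Across the 108 carriers, the 2 ES lines were less alike than DAC2 and REF2, and the 2 fibroblast cultures less alike than DAC8 and REF1. The Pearson correlation across members, averaged over pairs of arrays, was 0.437 between DAC2 and DAC8 and 0.421 between REF1 and REF2, against 0.955 between DAC2 and REF2 and 0.986 between DAC8 and REF1. A1 and A2 correlated at 0.994, and each stood between 0.628 and 0.663 against the other lines. Over all tested genes, DAC2 and DAC8 correlated at 0.638, REF1 and REF2 at 0.636, DAC2 and REF2 at 0.975 and DAC8 and REF1 at 0.988. There the iPS lines stood between 0.720 and 0.761 against the others, so this grouping of lines is not particular to carriers. These are correlations across genes, which are not independent replicates. The range of line means, highest minus lowest, had a median of 1.55 log2 units over the 108 members and reached 2 or more in 43 (39.8%). Among the 8354 other genes with a line mean of 7 or more, the median range was 1.32 and 31.5% reached 2. The number of members at 7 or more was 70 to 79 in each line, so no line lacked carriers as a whole. Arrays of 1 line agreed closely, with a median SD of 0.054 over members and lines.

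Tests between lines came from 1 limma fit of 11001 genes on 12 arrays, with adjusted p-values over all genes. A gene was called where the adjusted p was under 0.05 and the difference was at least 1 log2 unit (2-fold). Because a carrier that passed the level of 7 only where it was high had to differ, p-values are given only for the 71 members whose mean over all 12 arrays was 7 or more, leaving out Slc7a3, which the rule names. A carrier with that mean would have been kept had all its lines been equal. The other 37 are described by their levels. At the threshold, Slc25a44 (highest line mean 7.01), Slc16a13 (7.04) and Slc22a15 (7.06) were just inside, and Slc4a2 (6.996), Slc38a6 (6.97) and Slc27a1 (6.94) just outside.

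Between the 2 ES lines, 11 of the 71 carriers were higher and 16 lower in DAC2 than in DAC8 (15.5% and 22.5%). Of the 6507 genes tested with the same mean level, 19.1% were higher and 16.6% lower, and of all 11001 genes 19.8% and 20.4%. Between the fibroblast cultures, 15 were higher and 13 lower in REF2 than in REF1 (21.1% and 18.3%), against 19.4% and 15.5% of genes with that mean level and 20.7% and 19.6% of all genes. Shares of carriers near these backgrounds are not a result about carriers, and the interest lies in which carriers they were. The comparisons share no array. Of the carriers called in either, 22 were called the same way in both, 81.5% of the calls between the ES lines and 78.6% of those between the cultures, and 0 were called in opposite directions. This overlap was not counted over all genes, so it is not a result about carriers. The differences of all 108 members correlated at 0.948 between the comparisons (Pearson, across genes), beside 0.953 for all tested genes.

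**Figure D1:**
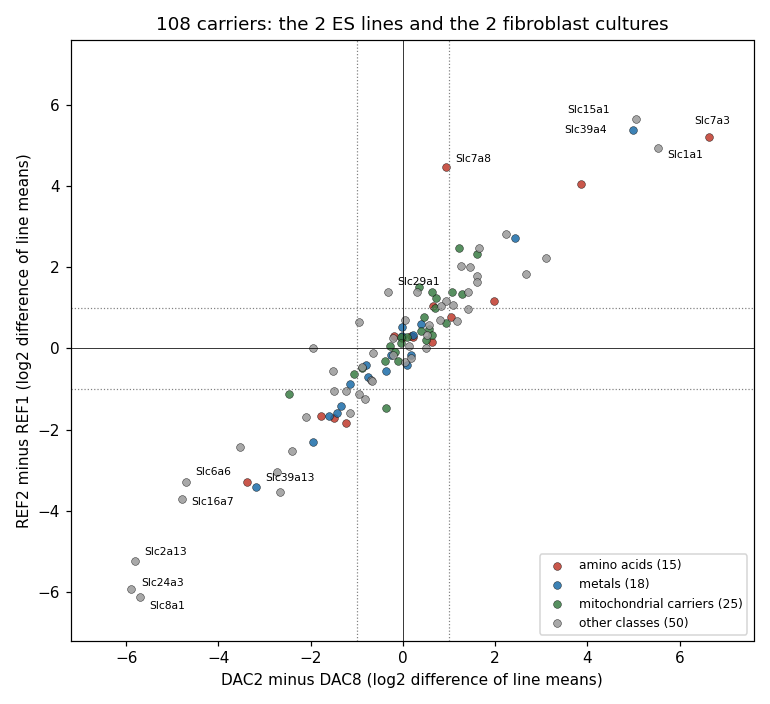
Log2 difference of line means for the 108 carriers, DAC2 minus DAC8 on the horizontal axis and REF2 minus REF1 on the vertical axis, coloured by substrate class. Dotted lines mark 2-fold. Slc7a3, Slc1a1, Slc15a1 and Slc39a4 lie at the upper right, Slc8a1, Slc24a3 and Slc2a13 at the lower left, and Slc7a8 stands off the diagonal because it was high in REF2 alone.

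Of the 15 amino acid carriers kept, of 36 on the array by name, Slc7a3 ranged over 6.64 log2 units. Slc7a3 carries arginine and lysine into the cell. It measured 11.32 and 11.15 in A1, 11.20 and 11.23 in A2, 12.19 and 12.26 in DAC2 and 11.44 and 11.34 in REF2. On the arrays of DAC8 it measured 5.61 and 5.57 and on those of REF1 6.17 and 6.18. The 8 high arrays and the 4 low ones did not overlap, and both iPS lines were on the high side. The related arginine carrier Slc7a1 did not follow it: its line means ran from 9.59 in REF1 to 10.61 in DAC2. Slc7a1 was higher in DAC2 than in REF2 by 0.87 ± 0.06 (log2 difference ± SE, limma adjusted p = 1.31e-05), under the 2-fold line. Slc7a2 and Slc7a4, the other members of this subfamily, stayed at or below 3.43 in every line. The members whose 6 line means were most like those of Slc7a3 were Slc16a6 (Pearson r = 0.976), Slc1a5 (0.974), Slc37a4 (0.957), Slc26a6 (0.953) and Slc16a1 (0.952). These are descriptions over 6 lines that fall into few profiles.

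The exchangers that pair with the heavy chain Slc3a2 differed in line pattern. The heavy chain Slc3a2 measured 11.20 ± 0.03 (mean ± SD, n = 2 arrays) in DAC2 and 11.29 ± 0.02 in REF2, against 10.26 to 10.70 in the other lines. It was higher in REF2 than in REF1 by 1.03 ± 0.06 (limma adjusted p = 1.34e-07). Its light chain Slc7a5, which takes up large neutral amino acids such as leucine, differed little, with line means from 8.73 to 9.44. Slc7a6, which exports cationic amino acids for neutral ones, was higher in DAC2 than in DAC8 by 1.04 ± 0.07 (limma adjusted p = 3.1e-07), and without DAC8 replicate 2 by 0.97. Slc7a7, of the same transport type, measured 8.46 and 8.41 in DAC2 and 8.80 and 8.68 in REF2, while the other 8 arrays lay between 4.49 and 5.77. Slc7a8, a second carrier of neutral amino acids, measured 10.42 and 10.24 in REF2 but 7.48 and 6.67 in DAC2, and 5.36 to 6.15 on the remaining arrays. Slc7a8 was therefore high in 1 of the 2 lines with a high median of naive pluripotency markers. Its DAC2 arrays were further apart than those of any other line. The cystine exchanger Slc7a11 stayed under the level of 7, with 6.204 in A1, 6.196 in A2 and 3.95 to 5.12 elsewhere, and the heavy chain Slc3a1 stayed at or below 4.22. Slc3a1 and Slc7a11 are named here although the rule did not keep them.

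Sodium-coupled carriers of small neutral amino acids went in different directions. Slc1a5, the main glutamine importer of many dividing cells, measured 10.17 and 10.07 in A1, 9.86 and 9.90 in A2, 10.04 on both arrays of DAC2 and 9.58 and 9.57 in REF2. It measured 8.09 and 8.03 in DAC8 and 8.38 and 8.46 in REF1, below all 8 others. Slc1a5 was higher in DAC2 than in DAC8 by 1.98 ± 0.06 (limma adjusted p = 1.32e-09) and in REF2 than in REF1 by 1.16 ± 0.06 (4.95e-08). Its paralog Slc1a4, which exchanges alanine, serine and cysteine, ran the other way. Slc1a4 measured 9.66 and 9.68 in DAC8 and 9.47 on both arrays of REF1, against 8.46 and 8.42 in DAC2 and 7.68 and 7.59 in REF2. It was lower in DAC2 than in DAC8 by -1.23 ± 0.06 and lower in REF2 than in REF1 by -1.83 ± 0.06 (limma adjusted p = 2.78e-08 and 1.97e-09). Slc38a10, a further Slc38 gene, was lower in DAC2 by -1.50 ± 0.07 and in REF2 by -1.72 ± 0.07 in the same comparisons.

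Slc38a1, Slc38a2 and Slc38a4 lie next to each other on rat chromosome 7, with 0 protein-coding genes between them in the RefSeq table of GRCr8. Slc38a2 and Slc38a4 differed in line pattern. Slc38a2, a neutral amino acid importer that cells raise when amino acids are short, measured 11.41 and 11.29 in DAC8, 11.02 ± 0.03 (mean ± SD, n = 2 arrays) in REF1, 10.41 to 10.54 in the iPS arrays, 9.58 and 9.56 in DAC2 and 9.35 on both arrays of REF2. It was lower in DAC2 than in DAC8 by -1.78 ± 0.06 and lower in REF2 than in REF1 by -1.67 ± 0.06 (limma adjusted p = 2.4e-09 and 3.73e-09). Slc38a4, which carries neutral and cationic amino acids, measured 5.73 and 6.02 in A1 and 5.39 and 5.49 in A2, against 8.45 to 8.79 on all 8 ES and EF arrays. Slc38a1, the glutamine carrier of neurons and dividing cells, varied by 0.84 over the lines and was 10.03 in A1, 10.18 in A2 and 9.34 to 9.64 elsewhere. For Slc38a1 another probe set above 5 gave a different order of lines (r = -0.26 over line means), so no order is read. Promoter windows from 250 bases before to 50 after the RefSeq start are shown for the 3 neighbours, because Slc38a2 and Slc38a4 differ in pattern. Capitals mark the amino acid response core TGATGNAAN, searched on both strands, and all 3 windows are on the minus strand of GRCr8, at chr7:129681352-129681651, chr7:129742570-129742869 and chr7:130082120-130082419.
Slc38a1: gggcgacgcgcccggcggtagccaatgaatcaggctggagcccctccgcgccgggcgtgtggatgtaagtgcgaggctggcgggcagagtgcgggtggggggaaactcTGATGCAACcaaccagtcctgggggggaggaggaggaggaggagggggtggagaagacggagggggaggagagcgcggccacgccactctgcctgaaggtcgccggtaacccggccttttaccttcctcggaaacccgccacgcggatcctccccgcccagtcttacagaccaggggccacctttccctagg
Slc38a2: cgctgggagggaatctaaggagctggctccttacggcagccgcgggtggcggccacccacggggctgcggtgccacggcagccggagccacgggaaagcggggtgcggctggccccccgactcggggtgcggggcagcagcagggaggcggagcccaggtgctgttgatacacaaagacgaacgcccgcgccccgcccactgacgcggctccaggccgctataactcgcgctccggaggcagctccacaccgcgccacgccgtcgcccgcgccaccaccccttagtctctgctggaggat
Slc38a4: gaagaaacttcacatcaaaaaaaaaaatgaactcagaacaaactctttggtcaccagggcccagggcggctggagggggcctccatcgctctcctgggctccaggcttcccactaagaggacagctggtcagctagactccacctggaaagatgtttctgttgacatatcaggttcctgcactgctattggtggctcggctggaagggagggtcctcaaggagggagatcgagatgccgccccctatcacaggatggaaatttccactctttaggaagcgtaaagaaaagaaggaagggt
The Slc38a1 window held 1 match, at position -142 from the start, and the letters were not in the windows of Slc38a2 and Slc38a4. Of 11 amino acid carriers with a window, 3 held the core (Slc1a4, Slc7a1 and Slc38a1), beside 4.14% of 27457 genes with a window. Slc1a4 and Slc7a1 shared no line pattern, and for Slc38a1 no order of lines is read.

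Slc6a15, a neutral amino acid carrier of neurons, was highest in the iPS lines. It measured 8.69 and 8.87 in A1 and 8.45 and 8.36 in A2, 5.83 and 5.65 in DAC8, 5.68 and 5.74 in REF1, 2.21 and 2.49 in DAC2 and 2.45 and 2.40 in REF2. The 6 lines thus fell on 3 separate levels. Neural markers were high in the same iPS arrays, and their part in this level was not tested. Beside the carriers, 14 genes of the amino acid response, which cells switch on when amino acids run short, were tested. In DAC2 against DAC8, 3 were higher and 3 lower, and the same counts held for REF2 against REF1. Of all tested genes, 19.8% and 20.4% were called in the first comparison and 20.7% and 19.6% in the second, so these counts lie near the background. Asns, which makes asparagine, was higher by 1.44 ± 0.07 and 1.85 ± 0.07, and Cebpb was lower by -2.58 ± 0.08 and -2.06 ± 0.08 (limma adjusted p at or below 3.33e-08 in each). Atf4, the factor that drives this response, ranged only from 11.54 to 12.06.

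**Figure D2:**
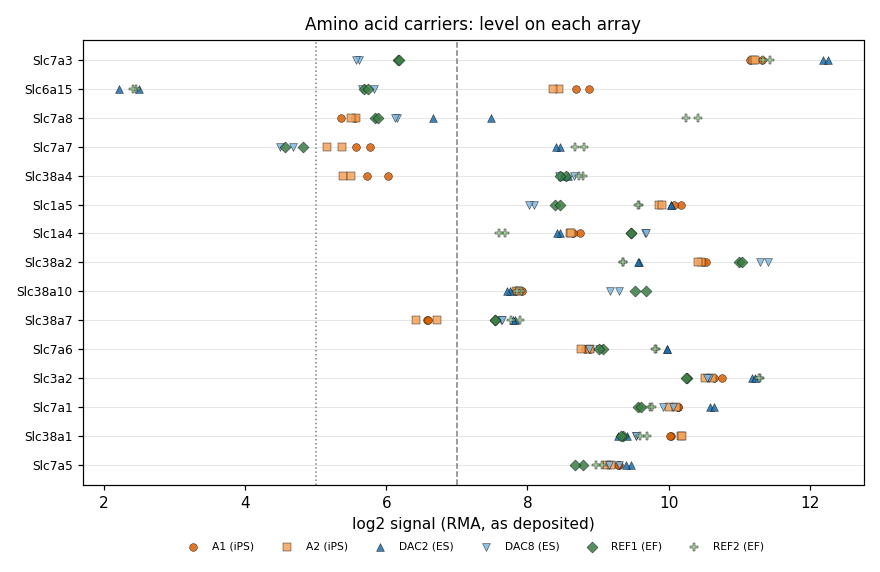
Log2 signal of the 15 amino acid carriers on each of the 12 arrays, 1 row per gene and 1 symbol per line, with a dotted line at 5 and a dashed line at the level of 7. Slc7a3 separates DAC8 and REF1 from the other 4 lines, Slc38a4 separates A1 and A2, and Slc7a1, Slc38a1 and Slc7a5 vary by about 1 log2 unit or less.

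Of 24 metal carriers by name 18 were kept, and the tested ones called between the ES lines or between the fibroblast cultures were lower in DAC2 or REF2. In DAC2 against DAC8, 6 of the 14 that were tested were lower and 0 higher, and in REF2 against REF1 5 were lower and 0 higher. Of all genes with that mean level, 16.6% and 15.5% were lower and 19.1% and 19.4% higher. The zinc importer Slc39a13, of the early secretory pathway, measured 10.10 and 9.99 in DAC8 and 10.08 and 10.12 in REF1, against 6.68 to 6.97 on the other 8 arrays. Its differences were -3.19 ± 0.07 and -3.41 ± 0.07 in these comparisons, and iPS lines against REF1 gave -3.31 ± 0.06 (limma adjusted p = 3.02e-10, 2.15e-10 and 9.48e-11). Slc39a6, a zinc importer of the cell surface, measured 9.66 and 9.68 in DAC8, 9.33 and 9.24 in REF1, 7.79 and 7.66 in DAC2, 7.02 and 6.95 in REF2 and 6.59 to 6.86 in iPS arrays. Slc39a7, which releases zinc from the secretory pathway, Slc30a4 and Slc30a7, which fill vesicles and the Golgi with zinc, and Slc39a1, a surface importer, followed, with differences of -1.15 to -1.61 in DAC2 against DAC8. These 4 genes are named after their values were seen. The fibroblast markers were high in the same 2 lines, DAC8 and REF1, and their part in these levels was not tested.

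A pair of zinc carriers ran opposite to that group. Slc39a4, the zinc importer of the intestine, measured 8.97 and 9.04 in DAC2 and 9.57 and 9.47 in REF2, against 3.60 to 5.30 on the other 8 arrays. Slc30a2, which loads zinc into vesicles, measured 6.73 and 6.66 in DAC2 and 7.18 and 7.05 in REF2 and 3.20 to 4.56 elsewhere, with A1 arrays as far apart as 3.20 and 4.49. The metallothionein Mt2A, a zinc-binding protein, was high in the same lines: 13.52 in DAC2 and 13.22 in REF2, against 7.03 to 7.22 in the other 4. It was higher in DAC2 than in DAC8 by 6.49 ± 0.07 and in REF2 than in REF1 by 6.01 ± 0.07 (limma adjusted p = 6.82e-12 and 8.56e-12). Promoter windows of Slc39a13 (chr3:97502995-97503294, minus strand of GRCr8) and Slc30a2 (chr5:151843201-151843500, plus strand) are shown because the genes had opposite line patterns. Capitals mark the core of the metal response element, TGCACNC or TGCGCNC, on either strand.
Slc39a13: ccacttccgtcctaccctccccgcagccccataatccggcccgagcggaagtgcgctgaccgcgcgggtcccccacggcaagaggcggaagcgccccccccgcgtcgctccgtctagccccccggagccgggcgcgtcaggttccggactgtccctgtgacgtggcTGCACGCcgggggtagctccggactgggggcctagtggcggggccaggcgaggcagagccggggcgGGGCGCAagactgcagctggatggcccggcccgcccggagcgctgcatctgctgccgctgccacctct
Slc30a2: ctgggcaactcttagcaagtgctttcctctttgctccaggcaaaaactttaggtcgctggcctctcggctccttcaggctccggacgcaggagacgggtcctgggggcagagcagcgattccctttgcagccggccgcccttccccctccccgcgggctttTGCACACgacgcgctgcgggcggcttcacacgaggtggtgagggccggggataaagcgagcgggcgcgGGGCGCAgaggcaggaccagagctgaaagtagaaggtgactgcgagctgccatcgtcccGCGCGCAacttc
Both windows held both forms of the core. Of 15 metal carriers with a window 8 held at least 1 form, beside 26.3% of all 27457 genes with a window (13.2% for TGCACNC and 15.7% for TGCGCNC). A match is a description of these letters and not a site.

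A few metal carriers stood apart in the iPS lines. Slc39a11, another zinc carrier of this family, measured 8.87 or more on the 4 iPS arrays against 6.86 to 7.71 on the other 8, and was higher in the iPS lines than in DAC2 by 2.08 ± 0.06 and than in REF1 by 1.32 ± 0.06 (limma adjusted p = 9.01e-10 and 1.59e-08). Slc39a10, a zinc importer related to Slc39a6, was higher in the iPS lines than in REF1 by 1.13 ± 0.05 but was not called against DAC2. By cell type as labelled, iPS minus ES was 1.68 for Slc39a11 and 0.67 for Slc39a10 (limma adjusted p = 0.141 and 0.468). For iPS minus EF the values were 1.53 and 0.82 (limma adjusted p = 0.165 and 0.345). None of these was called. Slc11a2, the iron importer of endosomes and gut, measured 7.45 to 7.57 on the iPS arrays against 8.40 to 8.91 elsewhere, and was lower than in DAC2 by -1.36 ± 0.05 (limma adjusted p = 4.28e-09). Slc31a2, a copper carrier of vesicles, lay at 4.88 to 5.24 on iPS arrays and 7.10 to 7.67 on the others. Its neighbour Slc31a1, the copper importer of the cell surface, with 1 protein-coding gene between them on chromosome 5, varied by only 0.41 over the lines (9.54 to 9.95). Slc39a10, Slc11a2 and Slc31a1 are named after their values were seen. Of 16 tested genes of iron, copper and zinc handling, 4 were higher and 6 lower in DAC2 than in DAC8, and the same counts held for REF2 against REF1, beside 19.8% and 20.4%, then 20.7% and 19.6%, of all tested genes. Heph, a copper oxidase that helps iron leave cells, was lower by -4.53 ± 0.12 and -3.53 ± 0.12 in these comparisons, and was 8.40 in DAC8, 7.99 in REF1 and at or below 4.46 elsewhere.

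**Figure D3:**
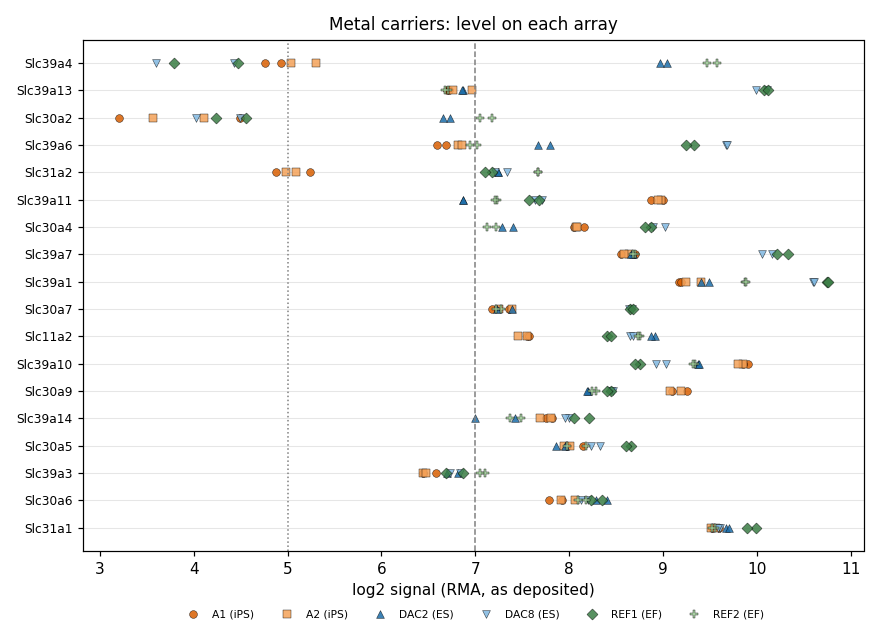
Log2 signal of the 18 metal carriers on each of the 12 arrays, 1 row per gene and 1 symbol per line, with a dotted line at 5 and a dashed line at 7. Slc39a13, Slc39a6, Slc39a7 and Slc30a7 are highest in DAC8 and REF1, Slc39a4 and Slc30a2 in DAC2 and REF2, and Slc39a11 in A1 and A2.

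Only 2 of 6 glutamate carriers on the array were kept, and no line was high for both. Slc1a1, the glutamate and cysteine importer of neurons and epithelia, measured 9.41 and 9.45 in DAC2 and 9.02 and 8.96 in REF2, and 3.84 to 4.37 on the other 8 arrays, iPS included. Slc1a3, the importer of radial glia and astrocytes, measured 7.88 and 7.96 in A1 and 7.52 and 7.82 in A2, 5.43 to 6.18 in DAC8 and REF1 and 4.63 to 4.76 in DAC2 and REF2. The astrocyte markers Gfap, Aldh1l1 and Aqp4 lay below 5 in every line, and S100b at or below 5.14. The astrocyte importer Slc1a2 stayed at or below 4.01 and the vesicular carriers Slc17a6 and Slc17a7 at or below 4.52. Around these carriers, Gad1, which makes GABA from glutamate, measured 8.25 in A1 and 8.31 in A2 and at or below 2.67 elsewhere. Of 9 tested genes of glutamate and GABA metabolism, 3 were higher and 1 lower in DAC2 than in DAC8. The same counts held for REF2 against REF1. Of all tested genes, 19.8% and 20.4% were called in the first comparison and 20.7% and 19.6% in the second. In the iPS lines against REF1, 5 of the 9 were higher and 1 lower, beside 16.4% of all genes in each direction. Gad1, 1 of the 5, reached the filter of 5 only in the iPS lines. It could only be higher there, so its call is not read as a result. The vesicular GABA carrier Slc32a1, at 6.58 in A1 and 6.22 in A2 and at or below 2.67 in the other lines, missed the level of 7. Glul, which makes glutamine from glutamate, was higher in DAC2 than in DAC8 by 3.43 ± 0.06 and in REF2 than in REF1 by 3.88 ± 0.06 (limma adjusted p = 5.04e-11 and 2.92e-11).

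Of 13 carriers of neurotransmitters and related solutes 3 were kept, and of these the taurine carrier Slc6a6 varied most. It measured 11.24 and 11.27 in DAC8, 11.16 and 11.15 in REF1, 8.72 and 8.76 in A1, 8.46 and 8.55 in A2, 7.91 and 7.84 in REF2 and 6.59 and 6.50 in DAC2, with no overlap between neighbouring lines in this order. Slc6a6 was lower in DAC2 than in DAC8 by -4.71 ± 0.06, in REF2 than in REF1 by -3.28 ± 0.06 and in DAC2 than in REF2 by -1.33 ± 0.06 (limma adjusted p = 1.13e-11, 8.09e-11 and 9.16e-07). DAC8 and REF1 differed by 0.10 ± 0.06 (limma adjusted p = 0.273). The creatine carrier Slc6a8 ranged over 0.39, from 7.81 to 8.21, and the glycine carrier Slc6a9 from 6.01 in REF2 to 7.29 in A1.

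The 3 nucleoside carriers kept were the equilibrative ones, and the concentrative carriers Slc28a1, Slc28a2 and Slc28a3 stayed at or below 5.39. Slc29a1, the main nucleoside carrier of the cell surface, measured 7.81 and 7.68 in REF2, and 4.97 to 6.50 on the other 10 arrays, DAC2 included at 5.61 and 5.75. Slc29a3, of lysosomes, measured 9.06 and 9.04 in REF2, 8.54 and 8.49 in DAC2 and 6.92 to 7.91 elsewhere, lower in the iPS lines than in DAC2 by -1.52 ± 0.07 (limma adjusted p = 2.4e-08). Slc29a2 ranged over 0.64 log2 units. Among 14 tested genes of nucleoside salvage, 4 were higher and 2 lower in DAC2 than in DAC8 and 5 higher and 2 lower in REF2 than in REF1, beside 19.8% and 20.4%, then 20.7% and 19.6%, of all tested genes. Upp1, which splits uridine, was higher by 4.38 ± 0.10 in DAC2 against DAC8 and by 5.21 ± 0.10 in REF2 against REF1, while Uckl1, a uridine kinase, was lower by -3.29 ± 0.11 and -2.65 ± 0.11 (limma adjusted p at or below 1.38e-08 in each).

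Lactate and pyruvate carriers were high in different lines. Slc16a7 measured 7.68 and 7.49 in DAC8 and 7.54 and 7.51 in REF1 and at or below 3.97 on all other arrays. Slc16a1 and Slc16a3 were low in the same 2 lines: Slc16a1 measured 8.51 on both arrays of DAC8 and 8.36 and 8.37 in REF1, against 10.14 to 10.87 on the other 8 arrays. Slc16a1 was higher in DAC2 than in DAC8 by 1.66 ± 0.06, in REF2 than in REF1 by 2.46 ± 0.06 and in the iPS lines than in REF1 by 2.05 ± 0.05 (limma adjusted p = 5.81e-09, 5.07e-10 and 5.75e-10); the last was 0.91 with the mean of its probe sets. Slc16a3, the lactate exporter of glycolytic cells, was higher in DAC2 than in DAC8 by 2.68 ± 0.06 and in REF2 than in REF1 by 1.83 ± 0.06. It was also the 1 carrier of the 71 with an adjusted p under 0.05 between the iPS lines, at 8.64 and 8.60 in A1 and 7.99 and 8.02 in A2, a difference of 0.61 ± 0.06 (limma adjusted p = 0.00227) that stayed under 2-fold. Slc16a6 was at or above 6.82 on the arrays of A1, A2, DAC2 and REF2 and at or below 4.91 on the others.

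Both sodium-phosphate carriers of the Slc20 family were kept. Slc20a1 measured 12.54 and 12.59 in DAC2 and 12.64 and 12.66 in REF2, 10.82 to 10.96 in DAC8 and REF1, and 9.91 to 10.06 on the iPS arrays, 3 levels without overlap. It was lower in the iPS lines than in DAC2 by -2.58 ± 0.05 and, under 2-fold, than in REF1 by -0.89 ± 0.05 (limma adjusted p = 9.27e-11 and 7.83e-08). Slc20a2 separated the 2 lines with a high median of fibroblast markers. It measured 8.68 and 8.65 in DAC8 against 7.74 and 7.57 in REF1, a difference of 1.01 ± 0.07 (limma adjusted p = 3.46e-05). This was the only 1 of 71 carriers called between DAC8 and REF1, where 0.261% of genes with that mean level were called higher and 0.307% lower (0.727% and 0.8% of all genes). The call was lost with quantile normalization (0.99), with the mean of the probe sets (0.71) and without REF1 replicate 2 (0.93), while leaving out REF1 replicate 1 added Slc27a3 (1.14).

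**Figure D4:**
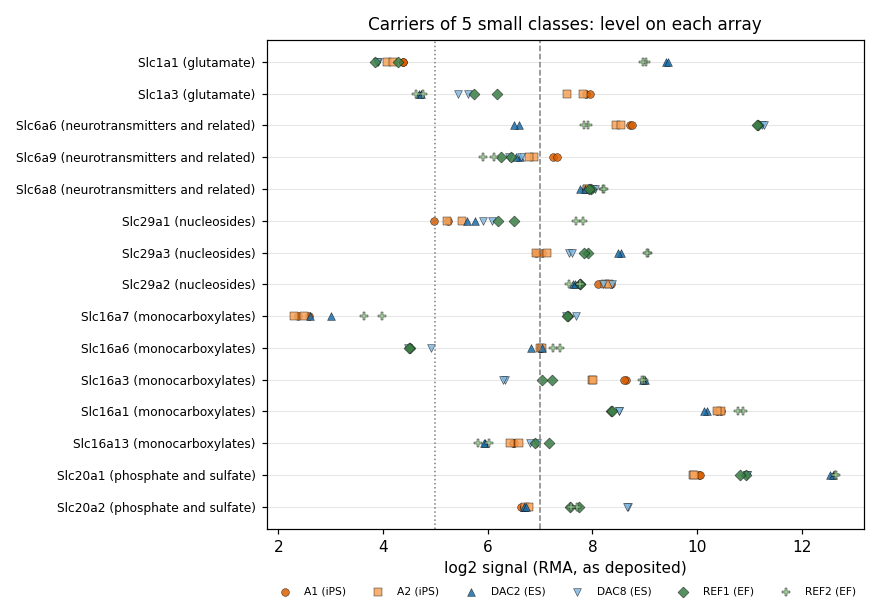
Log2 signal of the carriers of glutamate, neurotransmitters, nucleosides, monocarboxylates and phosphate on each of the 12 arrays, 1 row per gene with its class in brackets and 1 symbol per line, with lines at 5 and 7. Slc1a1 and Slc1a3 are high in different lines, Slc29a1 is above 7 in REF2 alone, and Slc16a7 is above 7 in DAC8 and REF1 alone.

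Mitochondrial carriers formed the largest class, with 25 kept of 39, and a small median range of 1.25 log2 units. Of the 20 that were tested, 4 were higher and 2 lower in DAC2 than in DAC8, and 5 higher and 2 lower in REF2 than in REF1. Of all genes with that mean level, 19.1% and 16.6% were called in the first comparison and 19.4% and 15.5% in the second. Slc25a4, the ADP/ATP exchanger of heart and muscle, measured 12.53 and 12.55 in A1, 12.39 and 12.44 in A2, 12.52 and 12.54 in DAC8, 12.49 and 12.39 in REF1, 11.31 and 11.30 in REF2 and 10.09 and 10.02 in DAC2. It was lower in DAC2 than in DAC8 by -2.47 ± 0.06 and than in REF2 by -1.24 ± 0.06 (limma adjusted p = 3.23e-10 and 1.11e-06). Its paralog Slc25a5, the exchanger of dividing cells, was higher in the iPS lines than in REF1 by 1.23 ± 0.05 (limma adjusted p = 6.67e-09), with line means of 13.19 and 13.30 in iPS, 12.84 in DAC2, 12.64 in REF2, 12.01 in REF1 and 11.90 in DAC8. Slc25a1, which exports citrate for lipid synthesis, measured 11.04 ± 0.07 in REF2, 10.54 ± 0.01 in DAC2, 9.70 in REF1, 9.26 in DAC8 and 8.71 and 8.49 in the iPS lines. Slc25a1 was lower in the iPS lines than in DAC2 by -1.94 ± 0.05 and than in REF1 by -1.09 ± 0.05 (limma adjusted p = 9.06e-10 and 3.74e-08).

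The pair of mitochondrial aspartate-glutamate exchangers was opposed across lines. Slc25a13 measured 10.23 and 10.20 in REF2, 9.29 and 9.25 in DAC2 and 7.68 to 8.09 on the other 8 arrays. Slc25a12, the form of brain and muscle, measured 7.81 to 8.10 on the iPS arrays, 7.18 to 7.29 in DAC8 and REF1, 6.85 and 6.64 in REF2 and 6.41 and 6.28 in DAC2. In the iPS lines against DAC2, Slc25a13 was lower by -1.35 ± 0.05 and Slc25a12 higher by 1.64 ± 0.08 (limma adjusted p = 9.25e-09 and 8.27e-08). Slc25a27, an uncoupling protein known from brain, measured 7.55 to 7.83 on the iPS arrays and 4.04 to 5.74 on the others. Slc25a30 measured 9.49 to 9.68 on the iPS arrays and 6.98 to 7.21 in DAC8 and REF1, a difference of 2.55 ± 0.05 between the iPS lines and REF1 (limma adjusted p = 1.19e-10). The ATP-magnesium and phosphate carrier Slc25a24 was the 1 tested carrier called higher in DAC2 than in REF2, by 1.34 ± 0.07 (limma adjusted p = 1.59e-06), at 9.35 and 9.43 against 8.01 and 8.08. The mitochondrial phosphate carrier Slc25a3 ranged over 0.43. Slc25a3, Slc25a5, Slc25a12 and Slc25a13 are named after their values were seen.

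**Figure D5:**
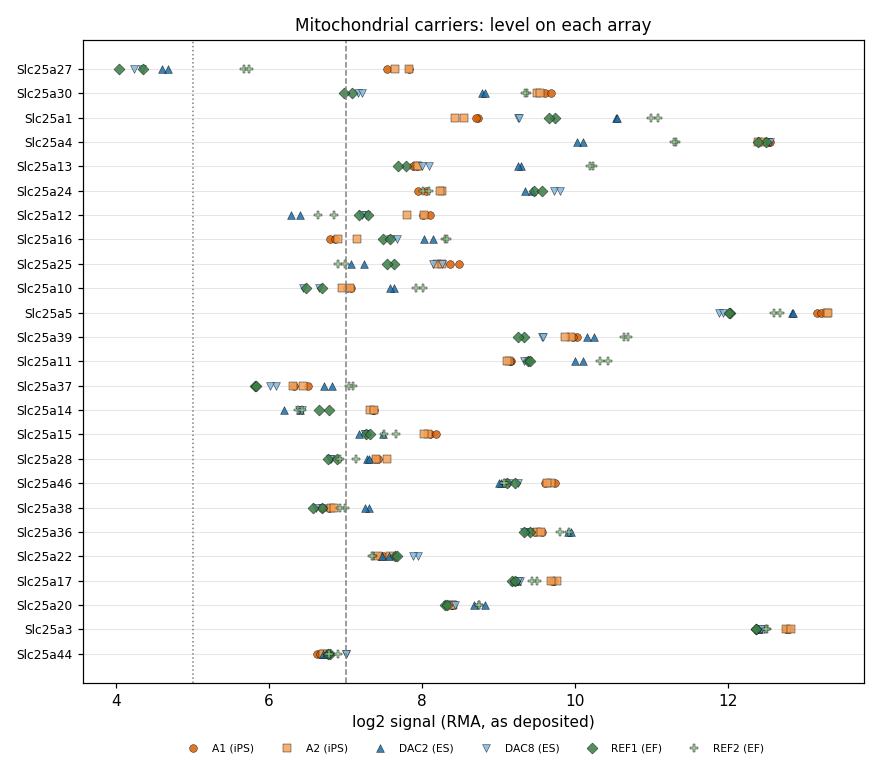
Log2 signal of the 25 mitochondrial carriers on each of the 12 arrays, 1 row per gene and 1 symbol per line, with a dotted line at 5 and a dashed line at 7. Slc25a4 is lowest in DAC2, Slc25a1 and Slc25a13 are highest in REF2 and DAC2, Slc25a27 is above 7 in the iPS arrays alone, and the lower rows vary by under 1 log2 unit.

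Among the 10 carriers of inorganic ions kept, the calcium exchangers Slc24a3 and Slc8a1 marked DAC8 and REF1. Slc24a3 measured 8.38 to 8.66 on their arrays and at or below 3.36 on all others. Slc8a1, the sodium-calcium exchanger of heart and smooth muscle, measured 8.25 to 8.49 there, 6.56 to 6.79 on the iPS arrays and 2.34 to 2.74 in DAC2 and REF2. The potassium-chloride carrier Slc12a7 measured 5.82 to 6.21 on the iPS arrays and 7.90 to 8.60 on the other 8, and was lower in the iPS lines than in DAC2 by -2.53 ± 0.06 and than in REF1 by -1.95 ± 0.06 (limma adjusted p = 7.35e-10 and 3.47e-09). Slc12a4, of the same kind, was 7.78 to 7.92 in DAC8 and REF1 and 5.12 to 6.15 elsewhere. Slc4a11 measured 8.43 and 8.33 in DAC2, 7.37 on both arrays of REF2 and 4.85 to 5.45 elsewhere.

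Of the carriers of other organic solutes, the peptide importer Slc15a1, known from the intestine, measured 8.03 and 7.99 in DAC2 and 8.75 and 8.62 in REF2 and at or below 3.09 on the other 8 arrays. Slc22a17, a lipocalin receptor of this family, measured 8.70 to 8.86 on the iPS arrays, 8.64 and 8.65 in REF1, 8.12 and 8.19 in DAC8 and 5.66 to 6.14 in DAC2 and REF2. It was higher in the iPS lines than in DAC2 by 3.02 ± 0.06 (limma adjusted p = 1.99e-10), while the iPS lines and REF1 differed by 0.14 ± 0.06 (limma adjusted p = 0.0639). Slc22a23 was highest on the iPS arrays, at 7.45 to 7.74, and 3.86 to 6.69 elsewhere. The acyl-CoA synthetase Slc27a3 was lower in the iPS lines than in DAC2 by -1.08 ± 0.09 and than in REF1 by -1.06 ± 0.09, but by -0.76 and -0.52 with the mean of its probe sets and by -0.90 against REF1 without REF1 replicate 1, all under 2-fold.

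Sugar, vitamin and nucleotide sugar carriers gave a few further line marks. The myo-inositol carrier Slc2a13 measured 7.67 to 8.41 in DAC8 and REF1 and at or below 4.64 elsewhere. Slc37a1, a glucose-6-phosphate carrier, measured 7.22 to 7.39 on the iPS arrays, 6.33 to 6.44 in DAC2 and REF2 and 4.70 to 4.89 in DAC8 and REF1. The thiamine importer Slc19a2 measured 8.54 and 8.47 in DAC8, 7.78 and 7.89 in REF1, 6.69 to 7.09 on the iPS arrays and 4.96 to 5.45 in DAC2 and REF2. The multivitamin carrier Slc5a6 was higher in DAC2 than in DAC8 by 1.10 ± 0.08 and in REF2 than in REF1 by 1.06 ± 0.08 (limma adjusted p = 9.17e-07 and 1.22e-06), and without DAC8 replicate 1 and REF1 replicate 2 by 0.98 and 0.99. The UDP-galactose carrier Slc35a2 measured 7.63 to 8.31 in DAC8 and REF1 and at or below 5.09 elsewhere. Slc35a1, which carries CMP-sialic acid into the Golgi, was higher in the iPS lines than in DAC2 by 1.15 ± 0.05 (limma adjusted p = 4.71e-08), but by 0.72 with the mean of its probe sets. The 3 members with the smallest range were Slc35a4 (0.22), Slc27a4 (0.32) and Slc25a44 (0.36).

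Set against DAC2, the ES line whose markers fitted its label, the mean of the iPS lines was called higher for 8 and lower for 13 of the 71 carriers (11.3% and 18.3%), beside 12.7% and 10.1% of genes with that mean level and 16.5% and 13.3% of all genes. By class, 0 amino acid carriers of 11 were higher and 3 lower (Slc38a4 by -2.88 ± 0.09, Slc38a7 by -1.23 ± 0.08 and Slc7a6 by -1.15 ± 0.06), and 3 of 20 mitochondrial carriers were higher and 4 lower. Of the 14 metal carriers 1 was higher and 1 lower. Slc39a6 was just short of a call, at -0.99 ± 0.06, and passed with quantile normalization or equal medians (-1.09 each). Against REF1, the culture whose markers fitted its label, 7 were higher and 12 lower (9.86% and 16.9%), beside 15.6% and 12.5% of genes with that mean level and 16.4% of all genes in each direction. There 1 amino acid carrier of 11 was higher (Slc1a5 by 1.58 ± 0.05) and 2 were lower (Slc38a4 by -2.84 ± 0.09 and Slc38a10 by -1.74 ± 0.06), 2 metal carriers were higher and 5 lower, and both tested lactate carriers were higher. The comparisons share the 4 iPS arrays, and each rests on 1 line on the other side.

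A1 and A2 gave 0 calls among the 71 carriers, where 0.0768% of genes with that mean level were higher and 0.0154% lower in A1 (0.136% and 0.0818% of all genes). At an unadjusted limma p under 0.05 there were 16. The shares above do not apply at that cut and none of all genes is given for it, so the 16 are not read as a carrier difference between A1 and A2. DAC2 and REF2 differed in 3 of 71, Slc25a24 higher and Slc6a6 and Slc25a4 lower in DAC2 (1.41% and 2.82%, beside 0.738% and 1.77% of genes with that mean level and 1.05% and 2.95% of all genes). Among the carriers not tested, the line means of DAC2 and REF2 were 7.07 and 10.33 for Slc7a8 and 5.68 and 7.75 for Slc29a1.

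By cell type as labelled, where the 2 lines of a type were averaged first and the 6 line means entered 1 limma fit, Slc38a4 was the only carrier of the 71 that was called. It was lower in iPS than in ES by -2.89 ± 0.26 (limma adjusted p = 0.0214) and than in EF by -2.97 ± 0.26 (0.0199). Among genes with that mean level, 0.415% were lower and 0.446% higher in iPS than in ES, and 0.523% and 0.584% than in EF. Of all genes, 0.436% were lower and 1.83% higher in iPS than in ES, and 0.509% and 2.02% than in EF. The call held without any 1 array (adjusted p from 0.0161 to 0.0294) and was lost without any 1 line, whichever it was, in the remaining 5 line means (0.0661 to 0.383). In ES against EF 0 carriers were called, also 0 at an unadjusted p under 0.05, and 0% of genes. Each ES and EF mean there averaged 1 line with high fibroblast markers and 1 with high naive pluripotency markers. Without DAC8 and REF2, ES and EF are 1 line each, and the 4 line means leave 1 residual degree of freedom, from A1 against A2, so the lone lines are assumed to vary like the iPS lines. Counts from a fit of these 4 means are therefore listed only among the processing alternatives and are not read as a result. The line comparisons above hold the differences of the iPS lines from DAC2 and REF1.

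Carriers outside the name rule, of Slc families from 40 upward and Slc35b to Slc35f, gave 30 tested genes. In DAC2 against DAC8, 5 were higher and 10 lower, and in REF2 against REF1 8 higher and 9 lower, beside 19.8% and 20.4%, then 20.7% and 19.6%, of all tested genes. Slc41a3, a magnesium carrier by family, was 8.09 in DAC8, 8.18 in REF1 and at or below 4.62 elsewhere. The riboflavin importer Slc52a3 was 7.17 in DAC2, 6.68 in REF2 and at or below 3.92 elsewhere. The neutral amino acid carrier Slc43a1 was higher in the iPS lines than in DAC2 by 3.40 ± 0.22 (limma adjusted p = 4.06e-07), at 7.07 in A1 and 6.47 in A2.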

How the data were processed

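RNA of 12 samples was measured on rat Affymetrix 3' expression arrays from 100 ng of RNA. The authors' deposited values are log2 signals, 1 per probe set, and the submitters' processing notes name RMA and Partek 6.2. The deposited values ran from 1.45 to 14.12, with array medians of 5.28 to 5.41, and 53.6% to 54.6% of probe sets at 5 or more. Depth has no counterpart on arrays, and the 2 arrays per line limit the precision. Of 31099 probe sets, 20832 carried 1 symbol in the platform's table, 436 several and 9831 were not listed. Symbols were checked against RefSeq's GRCr8 gene table (20764 matched, 0 changed), and promoter sequences are RefSeq's on GRCr8, with 89 of the 108 members matched.

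From these values, each gene's probe set with the highest mean was taken, and the 11001 genes with a line mean of 5 or more were fitted with limma 3.58.1 (R 4.3.3), with Benjamini-Hochberg adjustment over all of them. Lines were compared in 1 fit of 12 arrays, and cell types in a fit of the 6 line means. The fit was tested on simulated data. Named were all glutamate, neurotransmitter and nucleoside members; amino acid and metal members ranging over 2 or more and the heavy chains with their light chains; the 4 widest-ranging members of other classes; the 3 largest differences per direction in each line comparison; members at the threshold and of smallest range; Slc7a3 and its 5 most similar members; and up to 3 called genes per list and line comparison. Of this selection, Slc2a8, Slc5a3, Slc19a1, Slc23a2, Slc33a1 and Slc35a5 are not described in the Results. Slc5a3 lost its call in DAC2 against DAC8 with the mean of probe sets (-0.69). Slc35a5 lost its call in REF2 against REF1 without REF2 replicate 2 (-0.99). Other members named were chosen after their values were seen. Members and lists were chosen with earlier results of these data known. List genes had no cut on the mean over 12 arrays, so some may have passed the filter only where they were high. Alternatives in filter, normalization, probe set, variance model, block and samples were computed. Figures were drawn with matplotlib 3.10.9.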

Additional observations from a re-analysis of the deposited data

Results flagged for a closer look

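In groups of 4 arrays of 1 cell type, 1 of 189 groups of named members held an array far from the other 3 by Dixon's ratio. Chance flags about 1 in 20 only where the 4 arrays are alike. Each group here held 2 arrays of each of 2 lines, and where those lines differ the ratio can hardly flag a single array. The count is therefore not read as a measure of array quality. It was Slc29a2, the second equilibrative nucleoside carrier, in the fibroblast arrays: REF2 replicate 2 measured 7.56 and the other 3 arrays 7.76.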

How the results depend on the processing

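Over 245 pairs of a named and tested member (35 in all) and a line comparison, 5365 values under an alternative kept their direction and their side of the threshold, 13 lost the call, 12 gained it and 0 reversed. Slc38a4 lost its cell type calls in 12 further values, each of 6 lines left out in both comparisons. Without the 2-fold threshold (adjusted limma p alone), the higher and lower counts of the 71 carriers became 31 and 31 for DAC2 against DAC8, 37 and 26 for REF2 against REF1, 1 and 0 for A1 against A2, 13 and 22 for DAC2 against REF2, 21 and 10 for DAC8 against REF1, 27 and 31 for the iPS lines against DAC2, and 30 and 31 against REF1. No share of all genes is given at this threshold, so these counts are not a result about carriers. The 1 call of DAC8 against REF1 became 0 with quantile normalization and 0 with the mean of probe sets, and 0 to 2 with 1 array left out. Other line counts stayed within 1.5 times under each alternative that kept the 2-fold threshold.

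In iPS against ES, with 0 higher and 1 lower, and in iPS against EF, with the same counts, a fit of 12 arrays with line as random block (estimated correlation 0.965) gave 1 higher and 3 lower in each, and 12 arrays as independent samples gave 2 and 9 in each. Each line left out in turn gave 0 lower in both. Without DAC8 and REF2 the counts were 8 and 13 against ES, 7 and 12 against EF, and 11 and 14 for ES against EF, with 1 residual degree of freedom and ES and EF as 1 line each. Same-numbered arrays of different lines shared only a number: their deviations correlated from -0.08 to 0.24 (median 0.01). The replicate block on single arrays gave 2 higher and 7 lower in iPS against ES and 2 and 9 in iPS against EF, and moved no line count by over 1.5 times. No share of all genes is given for the random block, independent-sample or replicate block fits, so their counts are not a result about carriers. The counts without DAC8 and REF2 are not a result about carriers either, because the only spread between lines in that fit is A1 against A2. A level of 6 kept 129 carriers, a level of 8 kept 74, and any probe set at 7 kept 109. Arrays give no depth; levels below 5 set no size of a difference.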
